A study of Homo sapiens with 72 samples.

Results

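H3K4me2 and H3K4me3, methylation states of the same histone residue, were compared in untreated REH cells by the peaks called in 3 Cut&Tag libraries of each mark. Of 54 libraries in the series with peak files, these 6 were used for the comparison. Their 73847 peaks on the main chromosomes were used, beside 966542 peaks deposited in the whole series. Peaks of the 6 libraries that shared at least 1 base were merged, which gave 17967 regions of hg38. A region was said to carry both marks when at least 2 of 3 libraries of each mark had a peak in it. It was said to carry one mark only when at least 2 of 3 libraries of that mark and 0 of 3 of the other had one.

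REH is an established line from a B-cell precursor acute lymphoblastic leukemia with the ETV6-RUNX1 fusion. The cells were grown in supplemented RPMI medium and received no drug. Further sets of 6 libraries each, again 3 of H3K4me2 and 3 of H3K4me3, served as contrasts: one came from REH exposed to 1 nM bryostatin, a modulator of protein kinase C, and the other from untreated Raji, a Burkitt lymphoma line. Each line is a single established culture, and the labels number the libraries without saying that they came from separate cultures, so p-values measure the spread between these libraries, which may be technical.

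Methyl groups are placed on lysine 4 of histone H3 by the SET1 and MLL (KMT2) complexes and removed by LSD1 (KDM1A) and the KDM5 enzymes. H3K4me3 is concentrated on the nucleosomes that flank transcription starts, most of all at promoters rich in CpG dinucleotides, which the CXXC domains of these complexes bind when unmethylated. H3K4me2 is found on the shoulders of the same promoters and at enhancers and poised genes, where H3K4me3 is low. Cut&Tag tethers a transposase to an antibody, so the amplified fragments come from the chromatin around the bound histone.

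The windows of 6 regions and the promoters of 3 genes are shown because the sequence differed between kinds of region. Each window is 300 bases on the + strand of hg38, and capitals mark CpG dinucleotides. It is centered on the highest signal of the mark called in more libraries, or of H3K4me2 where the numbers were equal. The EIF5 window is thus at the H3K4me2 maximum. The EIF5 start had the largest excess of H3K4me3 among regions at protein-coding starts, and the SFPQ start had the highest signal among those called for H3K4me3 only. DLL4 (a stretch of 74 bases outside annotated untranslated regions) ranked high among starts with an excess of H3K4me2, the region nearest the RN7SL499P start had the largest such excess far from starts, and CUEDC1 and the region nearest ENSG00000250698 had the highest signal among H3K4me2-only regions near to and far from starts.
EIF5, chr14:103333706-103334005, intron: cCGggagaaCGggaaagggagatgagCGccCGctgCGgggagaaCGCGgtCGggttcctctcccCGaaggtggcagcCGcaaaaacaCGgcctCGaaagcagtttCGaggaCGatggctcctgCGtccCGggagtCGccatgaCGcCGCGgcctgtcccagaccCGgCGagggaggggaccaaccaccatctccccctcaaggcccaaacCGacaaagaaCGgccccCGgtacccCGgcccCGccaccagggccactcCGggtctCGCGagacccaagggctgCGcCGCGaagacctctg
SFPQ, chr1:35191926-35192225, intron: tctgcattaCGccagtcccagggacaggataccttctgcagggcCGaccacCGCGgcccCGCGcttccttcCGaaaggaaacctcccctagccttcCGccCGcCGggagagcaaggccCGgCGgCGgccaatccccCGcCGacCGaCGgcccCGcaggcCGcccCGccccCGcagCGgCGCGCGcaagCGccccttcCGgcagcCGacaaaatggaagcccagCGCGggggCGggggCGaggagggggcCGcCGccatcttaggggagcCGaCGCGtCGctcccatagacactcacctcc
DLL4, chr15:40929266-40929339, at the start: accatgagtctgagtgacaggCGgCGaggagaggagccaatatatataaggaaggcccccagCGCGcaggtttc
Nearest RN7SL499P, chr2:231672876-231673175, intergenic: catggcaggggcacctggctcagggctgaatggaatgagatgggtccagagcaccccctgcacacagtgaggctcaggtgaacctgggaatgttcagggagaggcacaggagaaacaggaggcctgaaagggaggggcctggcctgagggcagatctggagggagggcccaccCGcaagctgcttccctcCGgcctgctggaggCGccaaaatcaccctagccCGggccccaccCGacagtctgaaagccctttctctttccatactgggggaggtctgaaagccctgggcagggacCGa
CUEDC1, chr17:57874426-57874725, intron: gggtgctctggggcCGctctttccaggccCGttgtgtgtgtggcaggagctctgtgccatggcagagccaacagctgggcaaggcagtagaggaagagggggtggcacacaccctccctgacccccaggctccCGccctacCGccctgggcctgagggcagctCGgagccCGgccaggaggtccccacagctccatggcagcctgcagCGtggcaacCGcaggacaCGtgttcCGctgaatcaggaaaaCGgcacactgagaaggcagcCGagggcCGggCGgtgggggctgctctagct
Nearest ENSG00000250698, chr4:140095701-140096000, intron: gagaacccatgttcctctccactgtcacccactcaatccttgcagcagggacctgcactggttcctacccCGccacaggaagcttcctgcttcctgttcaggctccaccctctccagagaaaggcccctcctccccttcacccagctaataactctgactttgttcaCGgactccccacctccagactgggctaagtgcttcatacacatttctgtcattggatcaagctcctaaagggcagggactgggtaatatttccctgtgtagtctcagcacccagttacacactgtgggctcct

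The EIF5 and SFPQ windows held 33 and 38 CpG. CUEDC1 held 14, the RN7SL499P window 6 and the chr4 window 2. The observed over expected CpG ratio, which is the CpG count divided by what the C and G content alone would give, was 0.918 and 0.952 in the former and 0.405, 0.201 and 0.0993 in the latter. The full DLL4 window held 29 CpG at a ratio of 0.890, close to EIF5 and SFPQ, although H3K4me2 was in excess there. The same contrast appears in the 250 bases upstream of 3 B-lineage or housekeeping starts from RefSeq (GRCh38.p14, each on its gene's strand). VPREB1, which encodes part of the surrogate light chain, carried H3K4me2 only and has 8 CpG here, whereas PAX5, the B-lineage commitment factor, and RPL3, a ribosomal protein, carried both marks and have 27 and 28.
VPREB1, chr22:22244536-22244785, + strand: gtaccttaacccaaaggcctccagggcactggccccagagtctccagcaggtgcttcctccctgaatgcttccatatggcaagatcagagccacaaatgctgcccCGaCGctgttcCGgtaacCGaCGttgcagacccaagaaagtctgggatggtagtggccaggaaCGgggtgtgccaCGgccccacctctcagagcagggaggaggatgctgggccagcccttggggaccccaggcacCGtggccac
PAX5, chr9:37034269-37034518, - strand: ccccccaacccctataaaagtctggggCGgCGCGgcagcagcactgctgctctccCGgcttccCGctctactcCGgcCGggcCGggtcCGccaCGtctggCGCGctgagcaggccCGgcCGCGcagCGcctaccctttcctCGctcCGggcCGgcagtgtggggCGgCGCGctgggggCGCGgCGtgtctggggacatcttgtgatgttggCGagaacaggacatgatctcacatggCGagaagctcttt
RPL3, chr22:39319624-39319873, - strand: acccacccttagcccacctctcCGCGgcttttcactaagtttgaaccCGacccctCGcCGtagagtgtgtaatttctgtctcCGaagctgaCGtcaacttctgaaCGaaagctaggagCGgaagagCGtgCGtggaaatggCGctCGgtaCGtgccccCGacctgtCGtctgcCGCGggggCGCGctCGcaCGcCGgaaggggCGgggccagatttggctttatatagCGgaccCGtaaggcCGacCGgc

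The H3K4me2 libraries had 17778, 14001 and 13520 peaks on the main chromosomes and the H3K4me3 libraries 11809, 7509 and 9230. Reads per library (M, 1e6 reads), recovered from the smallest step of the coverage values, ranged from 13.7 to 18.8 M for H3K4me2 and from 10.2 to 27.9 M for H3K4me3. Within a mark the smaller peak sets lay inside the largest. Replicate 1 overlapped at least 99.9% of the peaks of replicates 2 and 3 of its mark, while only 63.5% of the peaks of H3K4me3 replicate 1 were overlapped by replicate 2. How many libraries called a region thus followed how many peaks each library had, and the part this played in the counts of regions was not tested.

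The labelled cell type was checked against marker genes. Of 12 B-lineage markers, 10 had a region with both marks within 1 kb of a start, and each library had a peak at 10 or 11 of them, while 47.9% of all protein-coding genes had such a region and 37.9% had no region. MS4A1 (CD20), which appears late in B-cell development, had no region. Both marks were found at 1 of 12 T-cell markers (BCL11B), 0 of 12 myeloid markers, 1 of 8 erythroid and megakaryocyte markers (EPOR) and 0 of 10 markers from outside blood. No region was found at 9, 8, 6 and 7 of these. H3K4me2-only calls included LCK, a kinase of T-cell receptor signaling, with 1744, 1675 and 1515 RPKM kb.

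In the full peak lists, nearly every place with H3K4me3 also had H3K4me2, while many places with H3K4me2 had no H3K4me3 call. Both marks were called in 8624 regions (48.0%), H3K4me2 only in 3506 (19.5%) and H3K4me3 only in 50 (0.278%). The other 5787 could not be classed by the rule. Of these, 2867 had a single H3K4me2 call, 220 a single H3K4me3 call and 2700 had calls for both marks with one of them in 1 library. All 6 libraries called 7174 regions, and 3 of 3 against 0 of 3 was seen in 2683 regions for H3K4me2 and 5 for H3K4me3. Since the classes were made from the calls, these counts are a description and carry no test.

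The H3K4me2-only count rested on H3K4me3 replicate 1, the library with the most H3K4me3 peaks: without it the count was 5492. The H3K4me3-only count was 5 without H3K4me3 replicate 1 or 3 and 358 without H3K4me2 replicate 1. With the 7509 strongest peaks of every library, both marks were called in 5145 regions, H3K4me2 only in 2160 and H3K4me3 only in 1898. The small H3K4me3-only count was thus seen with the full lists, in which H3K4me2 had more peaks. A region without a call may still hold signal below the caller's threshold. Median H3K4me2 signal was 730, 703 and 679 RPKM kb (coverage in RPKM summed over the called length in kb) where both marks were called and 398, 374 and 361 RPKM kb in the H3K4me2-only regions.

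Both H3K4me2 level and distance to a start moved with the presence of an H3K4me3 call. Among 12854 regions called in all 3 H3K4me2 libraries, the share without any H3K4me3 call was 40.5% in the lowest quartile of H3K4me2 signal and 6.88% in the highest. Within 1 kb of a start these shares were 20.9% and 3.88%. Elsewhere they were 89.8% and 42.4%, so many of the strongest H3K4me2 regions away from starts had no H3K4me3 peak.

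Regions with both marks sat at gene starts. A GENCODE transcript start lay within 1 kb of 98.4% of them, against 38.8% of H3K4me2-only and 96% of H3K4me3-only regions. Regions over 10 kb from any start made up 0.638% of those with both marks and 28.2% of those with H3K4me2 only. Of the 12744 regions that covered a start, 66.5% carried both marks and 9.26% H3K4me2 only. In the bins from the start out to 50 kb, the both-marks share was between 2.65% and 3.88% and the H3K4me2-only share between 43.4% and 45.7%. The highest signal fell in an intron in 56.9% of H3K4me2-only regions and 34.0% of those with both marks. Its mark was chosen as for the windows above, so equal calls took the H3K4me2 maximum.

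Calls also differed by type of gene. Where a protein-coding start lay within 1 kb (11739 regions), 69.0% carried both marks and 8.09% H3K4me2 only. Where only starts of other genes did (1420 regions), such as long noncoding RNAs and pseudogenes, the shares were 26.5% and 28.9%. Among the 20033 protein-coding genes, 9598 had a both-marks region at a start, 576 an H3K4me2-only region, 44 an H3K4me3-only region and 7590 no region.

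Single libraries were compared next. Peaks within 1 kb of a start were 72.8%, 81.0% and 82.3% of H3K4me2 peaks and 94.6%, 98.7% and 97.8% of H3K4me3 peaks, and the groups did not overlap (78.7 ± 5.15% against 97.0 ± 2.16%, SD, n = 3 each, exact two-sided permutation p = 0.1). Peaks over 10 kb from a start were 9.46 ± 2.99% of H3K4me2 peaks and 1.08 ± 0.811% of H3K4me3 peaks, again with no overlap (exact permutation p = 0.1). The differences shrank when the 7509 strongest peaks of each library were used: 89.1 to 89.4% of H3K4me2 and 98.5 to 98.7% of H3K4me3 peaks then lay within 1 kb of a start, a difference of 9.39 percentage points in place of 18.4, and the difference over 10 kb from a start went from -8.38 to -3.78 points. With 3 libraries against 3, 0.1 is the smallest p such a test can give, and over the 7 values compared per library it became 0.14 after Benjamini-Hochberg adjustment.

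Peaks of H3K4me2 were longer at the upper end. The 90th percentile of width was 4603 ± 462 bp for H3K4me2 and 3507 ± 613 bp for H3K4me3, and the summed length was 45.6 ± 9.92 Mb against 22.9 ± 6.78 Mb (SD, n = 3 each, exact permutation p = 0.1 for both, no overlap). Median widths were 2750, 2790 and 2350 bp against 2340, 2520 and 1750 bp, and here the groups overlapped (exact permutation p = 0.2, adjusted 0.233). The difference of the mean of these medians, -427 bp, was -200 bp without H3K4me3 replicate 3. With the 7509 strongest peaks of each library the median widths were 3630, 3420 and 2850 bp against 2710, 2520 and 1870 bp with no overlap (exact permutation p = 0.1), whereas the difference in summed length went from -22.6 to -8.89 Mb. Overlapping peaks were nested rather than shifted. In same-numbered libraries 94.2 to 98.1% of H3K4me3 peaks overlapped an H3K4me2 peak and 71.1 to 82.0% lay wholly inside one. The H3K4me2 call was the longer in 89.7 to 96.8% of regions with both, with a median length ratio of H3K4me3 to H3K4me2 between 0.721 and 0.819.

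Gene coverage changed direction with the number of peaks used. With all peaks, 57.3 ± 3.27% of protein-coding genes had an H3K4me2 peak within 1 kb of a start and 49.9 ± 7.97% an H3K4me3 peak, with overlapping groups (SD, n = 3 each, exact permutation p = 0.3). The difference of -7.37 percentage points was -11.5 without H3K4me3 replicate 1 and -3.56 without H3K4me3 replicate 2. With the 7509 strongest peaks of each library, H3K4me2 covered 35.1 to 35.7% of genes and H3K4me3 41.7 to 42.4%, so the difference reversed to 6.79 percentage points in favor of H3K4me3 (exact permutation p = 0.1).

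The shape around a start was read from 9585 protein-coding genes with an annotated start at least 5 kb from starts of other genes. Of these, 2775 lay in a both-marks region and 196 in an H3K4me2-only region. In the former the H3K4me2 peak reached a median of 946, 879 and 752 bp upstream and 2029, 1905 and 1615 bp downstream of the start. The H3K4me3 peak reached 734, 729 and 457 bp upstream and 1638, 1613 and 1152 bp downstream. Both marks extended farther into the gene than away from it. Upstream the lowest H3K4me2 value (752 bp) was just above the highest H3K4me3 value (734 bp). Downstream the groups overlapped, with 1615 bp in an H3K4me2 and 1638 bp in an H3K4me3 library. The spread between libraries was thus about as large as the difference between marks.

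The point of highest signal separated the marks more clearly. It lay downstream of the start in 62.1%, 59.9% and 61.2% of these starts for H3K4me2 and in 91.6%, 89.9% and 88.1% for H3K4me3. At these starts H3K4me2 thus peaked on either side, whereas H3K4me3 peaked mostly on the transcribed side. Over all peaks with their maximum within 1 kb of a start the contrast was smaller, with 44.5 to 45.7% downstream for H3K4me2 and 64.7 to 67.9% for H3K4me3. The median position of these maxima was -6 ± 1 bp for H3K4me2 and 34 ± 6.93 bp for H3K4me3 (SD, n = 3 each, exact permutation p = 0.1, no overlap).

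The ratio of H3K4me3 to H3K4me2 fell away on both sides of the start. With uncalled bases set to 0 and no centering, the log2 ratio of the mean called signal was 1.02, 0.88 and 1.09 at the start in the 3 same-numbered pairs of libraries. At 1 kb downstream it was 1.02, 0.87 and 0.80, and at 1 kb upstream 0.32, 0.18 and -0.68. At 2 kb upstream it was -1.41, -1.16 and -2.29, and at 3 kb downstream -0.09, -0.33 and -0.95. The pairs gave the same order of positions but differed in level on the flanks, where the third pair was lowest and its H3K4me3 library had the fewest reads.

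Signal was compared region by region in the 7174 regions called in all 6 libraries. The summed signal of each region was taken as log2, centered on each library's median and tested with limma, so a difference is relative to the typical region. H3K4me3 was higher in 2967 regions (41.4%) and H3K4me2 in 2535 (35.3%) at a Benjamini-Hochberg adjusted p below 0.05. The 3 libraries of one mark lay wholly above those of the other in 5385 of these 5502 regions. As only called regions were counted, this largely follows from the call and is no further evidence. Without centering, the median log2 difference moved from 0.08 to 0.92 and the calls from 53.9% to 88.4% higher in H3K4me3, so the split between directions depends on the centering. It also depended on which regions were tested: H3K4me3 was higher in 3086 and H3K4me2 in 3512 of the regions called in at least 2 of 3 libraries of each mark, and in 1648 and 2000 with equal peak numbers. All 6 libraries had to call a region for it to be tested, and regions with a missing mark, the most uneven ones, are outside these counts.

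Relative to the typical region, the balance leaned to H3K4me2 away from starts. Median log2 differences over a start were 0.07, 0.08 and 0.10 in the 3 pairs (7086 regions). At 1 to 5 kb they were -0.93, -0.90 and -1.03 (33 regions) and at 5 to 50 kb -1.20, -1.17 and -1.29 (49 regions). Of the 49 regions, 42 were higher in H3K4me2 and 3 in H3K4me3. The step from over a start to 1 to 5 kb was -1.03 ± 0.08 (SD over 3 pairs), and it was between -1.06 and -0.98 with any 1 same-numbered pair left out. Without centering the medians were 0.97, 0.96 and 0.85 over a start, -0.02, -0.02 and -0.28 at 1 to 5 kb and -0.30, -0.29 and -0.54 at 5 to 50 kb, so the step was the same but the lean at 1 to 5 kb was small.

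The largest excess of H3K4me3 at a start was found at EIF5, which encodes a translation initiation factor. It had 332, 274 and 269 RPKM kb of H3K4me2 and 2911, 2755 and 2541 RPKM kb of H3K4me3. The centered log2 difference was 2.39 (SE 0.09, limma adjusted p = 5.17e-10), with nearly equal widths of 2970 and 2960 bp. A width per region is the summed length of a library's peaks in it, given as the median of 3 libraries. HNRNPK, an RNA-binding protein gene that shares its region with RMI1, followed at 2.04, and DDX5, an RNA helicase gene beside CEP95, at 2.02. WDR43, ATXN2L, SOX4, the region of BAG5, COA8 and KLC1, VAPA, SSU72 and MAPK14 had log2 differences from 2.00 down to 1.82.

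SOX4, a transcription factor of early B-cell and T-cell development, was the lineage gene in this group. Its H3K4me2 signal was 651, 451 and 397 RPKM kb and its H3K4me3 signal 3476, 3157 and 3143 RPKM kb, with a log2 difference of 1.89 (SE 0.13, limma adjusted p = 5.01e-08). Separation of the marks was a condition for being picked into this group.

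After centering, an excess of H3K4me2 reached larger folds, which was not so without it. PLEC, the gene of a cytoskeletal linker, had 6017, 6939 and 6434 RPKM kb of H3K4me2 and 1011, 823 and 552 RPKM kb of H3K4me3, a log2 difference of -3.91 (SE 0.13, limma adjusted p = 3.51e-10). DLL4, a Notch ligand gene, had 3984, 4128 and 4371 RPKM kb against 598, 624 and 382, a difference of -3.84 (SE 0.12, limma adjusted p = 2.59e-10). IQSEC1, a gene for an ARF exchange factor, appeared with 2 separate regions at -3.64 and -3.06. DLX2 (-3.42), AHNAK (-3.28), FKBP5 (-3.25), BCOR (-3.09), ZMYND8 (-3.08) and KIF26B (-3.08) completed the set. Several of these were broad in H3K4me2 and narrow in H3K4me3. IQSEC1 had median widths of 12070 and 2290 bp and FKBP5, the gene of a glucocorticoid-responsive co-chaperone, 7800 and 1790 bp, whereas KIF26B had 4640 and 4460 bp.

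**Figure D1:**
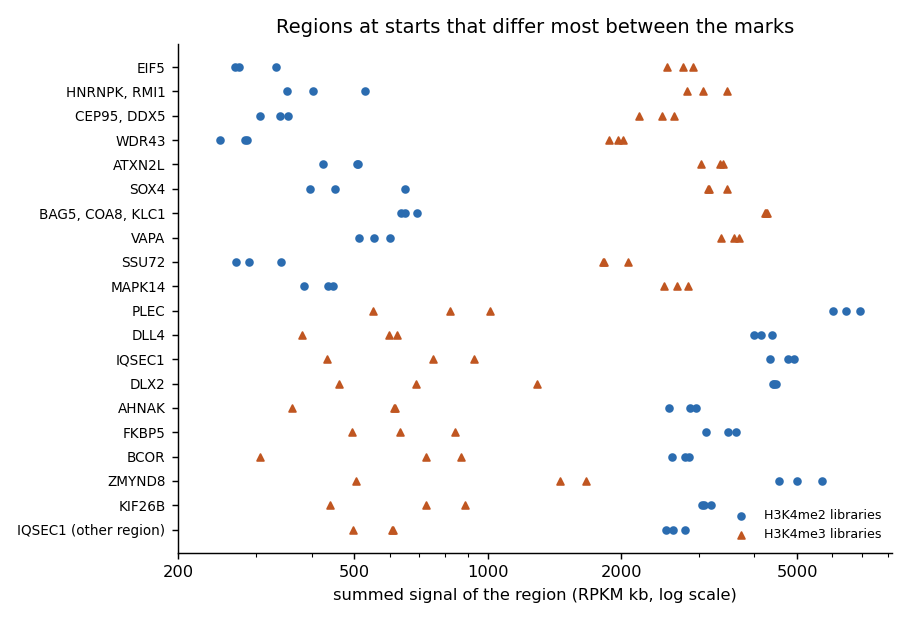
Summed signal in RPKM kb (x axis, log scale) of the 10 regions at protein-coding starts with the largest difference in each direction, 1 point per library (circles H3K4me2, triangles H3K4me3). Regions were picked only if the centered values of the marks did not overlap, so the gap between points follows from the choice. Signals include 2541 to 2911 for H3K4me3 at EIF5 and 6017 to 6939 for H3K4me2 at PLEC.

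Far from starts the excess was almost always of H3K4me2. Of 31 tested regions over 10 kb from any start, 26 were higher in H3K4me2 and 2 in H3K4me3. The region nearest RN7SL499P (chr2:231669311-231676680) had 3418, 3918 and 3769 RPKM kb of H3K4me2 and 699, 652 and 762 of H3K4me3, a log2 difference of -3.24 (SE 0.12, limma adjusted p = 3.98e-10). An intronic region nearest ENSG00000278716 (chr16:85458961-85465800) stood at -2.86 and one in an intron of GALNT2 (chr1:230102631-230127790) at -2.22. Regions nearest TEX44 (chr2:231609881-231618010) and LINC02580 (chr2:43188521-43202790) had -1.77 and -1.75. The pair in the other direction, nearest GUSBP17 (chr5:71287501-71291070) and COX6B1P1 (chr7:149064371-149066420), had only 0.29 and 0.27, and the former turned to -0.46 with the mean signal per called base. Without H3K4me2 replicate 2 neither passed the test (0.25 and 0.23).

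Among H3K4me2-only regions at protein-coding starts, CUEDC1 (chr17:57865111-57877550) had the highest signal, with 4081, 4375 and 3862 RPKM kb over 10550 to 12440 bp. ADAMTS7, a metalloprotease gene, had 3422, 3559 and 3030 RPKM kb, and BCL9L, which encodes a beta-catenin cofactor, 2967, 3213 and 2693. DNAJB12, KASH5 and UQCC2 came next with means of 2947, 2764 and 2659 RPKM kb. These are well above the H3K4me2 median of regions with both marks, and none of the H3K4me3 libraries had a peak there.

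The H3K4me3-only starts were narrower. SFPQ, the gene of a splicing and paraspeckle protein, had 2282, 2103 and 2024 RPKM kb of H3K4me3 over 1630 to 3560 bp (chr1:35190501-35194060). PSPC1, which encodes a partner of SFPQ in paraspeckles, had 1264, 1095 and 1093 RPKM kb. ZNF606, PRPF3 and GOSR1 had means of 791, 659 and 657 RPKM kb, and ZNF669 had 623 and 734 RPKM kb in the 2 libraries with a peak.

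The strongest H3K4me2-only regions over 10 kb from any start were mostly intronic. They lay in introns nearest ENSG00000250698 (chr4:140092151-140101610; 2236, 2164 and 1857 RPKM kb), in HDAC4, a histone deacetylase gene (chr2:239263171-239269490; mean 2079), in VAV2 (chr9:133953411-133962760; mean 2011) and in RXRA, which encodes a nuclear receptor (chr9:134401141-134409510; mean 1952). Intergenic regions nearest ENSG00000289905 and HMGB1P1 had means of 1913 and 1792 RPKM kb. The distances to the nearest start were 10.2 to 26.5 kb.

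The regions widest in H3K4me3, by the summed length of a library's peaks in the region, were wide in H3K4me2 too. The RNA5S9 cluster of 5S ribosomal RNA genes was first with median widths of 38750 bp for H3K4me3 and 39980 bp for H3K4me2, but its copies are nearly identical and its signal is uncertain. BLACE had 25830 and 29110 bp, the GRK2 and ANKRD13D region 24500 and 28010 bp, the TSPOAP1 and SUPT4H1 region 19660 and 32180 bp, EGFL7 19050 and 25560 bp and BAHCC1 16310 and 24490 bp.

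Width moved with the ratio of the marks over the whole set. Among the 7086 tested regions over a start, the median log2 difference was 0.25 in the quartile with the narrowest H3K4me2 and -0.27 in the widest. In the same quartiles 20.1% and 52.0% were higher in H3K4me2. Across regions Pearson's r was -0.33 and Spearman's rho -0.26 (n = 7086, regions share the same 6 libraries, and the summed signal contains the width).

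Ribosomal protein genes leaned to H3K4me3. Of 64 tested, 40 were higher in H3K4me3 and 7 in H3K4me2, with a median log2 difference of 0.41, beside 43.99% and 32.9% of all 8209 protein-coding genes tested and a median of 0.13. RPL3 did not pass the test at -0.13 and was 0.72 without centering.

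All 20 writers and erasers of H3K4 methylation carried both marks, as did 47.9% of all protein-coding genes. Of 18 tested, 10 were higher in H3K4me3 and 2 in H3K4me2, with a median of 0.50, beside the same 43.99% and 32.9% of all genes tested. KDM1A, which removes H3K4me2 and me1, had 459, 445 and 357 RPKM kb of H3K4me2 and 1906, 1802 and 1762 of H3K4me3, a log2 difference of 1.28. PAXIP1, a subunit of the KMT2C and KMT2D complexes, stood at 1.07 and KDM5B, an H3K4me3 demethylase, at 0.95. MEN1, which encodes the menin scaffold of MLL, was at -0.65 and SETD1B, a SET1 enzyme, at -0.39, values that became 0.20 and 0.45 without centering. SETD1B did not pass the test without H3K4me3 replicate 2 (-0.28). KMT2A itself did not pass the test at -0.12 and was 0.72 without centering.

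Housekeeping genes resembled them, with 11 of 17 tested higher in H3K4me3, 3 higher in H3K4me2 and a median of 0.43. The shares of all protein-coding genes tested were again 43.99% and 32.9%. B2M, the light chain of MHC class I, was at 1.45 and PPIA, a prolyl isomerase gene, at 1.43. ACTB was at -0.39, which turned to 0.46 without centering and 0.29 with quantile normalization and did not pass the test without H3K4me3 replicate 2 (-0.27).

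Precursor B-cell genes leaned to H3K4me2 relative to the typical region. Of 15 tested, 9 were higher in H3K4me2 and 3 in H3K4me3, with a median of -0.63. The shares of all protein-coding genes tested were 32.9% and 43.99%. Without centering 2 of the 15 were higher in H3K4me2 and 7 in H3K4me3, with a median of 0.21. The uncentered median of all protein-coding genes was 0.97, with 686 of 8206 higher in H3K4me2 and 6438 in H3K4me3. CD22, the inhibitory receptor targeted by the CAR-T cells of the study, had 1322, 1653 and 1477 RPKM kb of H3K4me2 and 769, 745 and 574 of H3K4me3, a log2 difference of -1.94 (SE 0.11, limma adjusted p = 7.00e-09). DNTT, the terminal transferase of antigen-receptor joining, was at -1.02, CD79A, a chain of the B-cell receptor, at -0.94 and RAG2, a recombinase gene, at -0.92, and none of these 3 passed the test without centering.

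RAG1, the other recombinase gene, was at 0.42, CD24, a surface glycoprotein of immature B cells, at 1.27 and MME (CD10) at 0.67. VPREB3 and IGLL1, parts of the surrogate light chain pathway, were at -0.73 and -0.63 and became 0.12 and 0.21 without centering. CD79B was at -0.57 by summed signal, 0.27 without centering and 0.56 by maximum signal. The genes of the list that carried H3K4me2 only were VPREB1 (671, 359 and 429 RPKM kb), BLK, a B-cell kinase gene, and CD34, a stem-cell antigen gene, the last pair in 2 of 3 libraries.

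Transcription factors of the B lineage and of leukemia were split, with 6 of 19 tested higher in H3K4me3 and 9 in H3K4me2. The shares of all protein-coding genes tested were 43.99% and 32.9%. The list median was -0.10 and became 0.75 without centering, beside an uncentered 0.97 for all protein-coding genes. ERG, an ETS factor gene, was farthest to one side at -2.83 (SE 0.13, limma adjusted p = 1.73e-09), with 7295, 8275 and 6525 RPKM kb of H3K4me2 over a median of 26240 bp and 2458, 1815 and 1404 of H3K4me3 over 6660 bp. POU2AF1, a B-cell coactivator gene, was at -2.15 and SPI1 (PU.1) at -1.37. FOXO1, which drives RAG expression, was at 1.82 and MYB, a progenitor factor gene, at 1.19, although MYB turned to -0.45 by maximum signal. EBF1 was at 0.27, which became -0.14 by the mean signal per called base and did not pass without H3K4me2 replicate 1 or 3 or H3K4me3 replicate 3 (0.20 to 0.24), and PAX5 at 0.29 did not pass the test (limma adjusted p = 0.0864). PAX5 passed with the replicate block (limma adjusted p = 0.015), without a variance trend, in the upper 0.5 of regions, with equal peak numbers, with quantile normalization (1.07) and without centering (1.13). POU2F2 and IRF4, factors of more mature B cells, carried H3K4me2 only.

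Antigens and natural killer cell ligands that the study followed leaned to H3K4me2 relative to the typical region. Of 15 tested, 9 were higher in H3K4me2 and 3 in H3K4me3, with a median of -0.76. The shares of all protein-coding genes tested were 32.9% and 43.99%. The lean was absent in the upper 0.5 of regions, with 4 of 9 higher in each direction and a median of 0.005. With equal peak numbers 6 of 12 were higher in H3K4me2 and 4 in H3K4me3. Without centering 3 of the 15 were higher in H3K4me2 and 7 in H3K4me3. The median was then 0.08, below the 0.97 of all protein-coding genes. MICA, a ligand of NKG2D, was at -0.94 and FAS, a death receptor gene, at -0.92, while HLA-C was at 0.45. FAS and MICA did not pass the test without centering (-0.08 and -0.10), nor MICA and HLA-C by maximum signal (-0.01 and 0.05). Of 39 HOX genes, 25 had no region and 7 carried both marks, beside 37.9% and 47.9% of all protein-coding genes. Of 5 tested, 4 were higher in H3K4me2 by limma (2 by maximum signal) and 0 in H3K4me3. The shares of all protein-coding genes tested were 32.9% and 43.99%. The HOX median was -0.42 and became 0.43 without centering, again below that of all protein-coding genes. HOXA13 was at -1.42, HOXA6 at -1.37 and HOXA9 at -0.42, the last of which became 0.43 without centering. The lists were described by counts alone and were not tested against other genes.

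The classes differed in sequence, which their definition did not use. The highest signal was that of the mark called in more libraries, or of H3K4me2 where the numbers were equal. In the 300 bases around the highest signal, the median CpG observed over expected ratio was 0.810 where both marks were called, 0.302 with H3K4me2 only and 0.696 with H3K4me3 only, beside 0.685 over all regions. It exceeded 0.6 in 82.9%, 17.3% and 66.0% of regions. Among regions within 1 kb of a start the medians were 0.812 for both marks and 0.364 for H3K4me2 only. This distance was taken from the region and not from its highest signal, and gene types were not matched. Far from starts the H3K4me2-only median was 0.269. Over whole regions the medians were 0.617 and 0.273.

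CpG content also moved with the balance inside the both-marks class, but weakly. From the lowest to the highest quartile of the ratio, the median log2 difference over starts went from -0.09 to 0.21, and the share higher in H3K4me3 from 34.8% to 48.7%. Across regions r was 0.20 and rho 0.15 (n = 7086, regions of the same 6 libraries). The median ratio was 0.834 in regions higher in H3K4me3 and 0.783 in those higher in H3K4me2. CpG content thus differed much more between classes than it moved with the signal balance where both marks were called.

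Short motifs, searched on both strands of the same 300 bases, followed the CpG contrast in part. GGGCGGG (SP and KLF) was present in 53.2% of both-marks and 18.8% of H3K4me2-only regions (37.8% of all), GCGCANGCG (NRF1) in 13.5% and 1.34% (8.28%), CCGGAAG (ETS core) in 14.4% and 4.91% (10.4%) and CCAATCA (NFY) in 6.08% and 2.71% (4.56%). Other motifs were more frequent with H3K4me2 only. CAGCTG (E-box) was present in 17.8% and 33.0% (23.1%), CCCNNGGGA (EBF1) in 12.8% and 18.6% (14.02%), TGTGGTT (RUNX) in 2.40% and 8.73% (5.29%), TGANTCA (AP-1) in 3.28% and 7.90% (5.63%) and AGATAA, which GATA factors bind, in 2.79% and 6.76% (5.11%). GGNGGCAG (CTCF) was level at 21.7% in both. A match is only a string of letters, and motifs with CpG are more frequent in CpG-rich windows. In the 50 H3K4me3-only regions CCGGAAG was present in 28.0%.

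H3K27me3, the Polycomb mark of silent genes, gave an independent readout from 3 further libraries of untreated REH (17621 to 48483 peaks). An H3K27me3 peak overlapped 11.8 ± 1.73% of H3K4me2-only regions, 4.21 ± 0.972% of both-marks regions and 7.77% of all regions (SD, n = 3 libraries). Near starts the H3K4me2-only share rose to 20.6 ± 2.62%, and far from starts it was 5.47 ± 1.19%. Each library gave a higher share for H3K4me2-only than for both-marks regions. Bulk libraries do not show whether both marks sat on the same chromosome copy or in different cells.

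H3K4me3 calls in bryostatin-treated REH, made without reference to these classes, kept the split between both-marks and H3K4me2-only regions. The treated H3K4me3 libraries had a peak in 84.5 to 99.95% of both-marks regions and in 0 to 0.200% of H3K4me2-only regions. The treated H3K4me2 libraries had one in 90.2 to 100% and 50.7 to 99.9%. Over all regions the means were 49.2% for treated H3K4me3 and 79.2% for treated H3K4me2 libraries. The latter was close to the mean of 80.0% in H3K4me2-only regions. The H3K4me3-only regions were less steady, with a peak in 62 ± 43.9% in treated H3K4me3 libraries (14 to 100%) and in 20.7 ± 35.8% in treated H3K4me2 libraries (0 to 62%, SD, n = 3 each). In Raji, H3K4me3 libraries called 88.7 ± 0.893% of the both-marks and 6.41 ± 4.13% of the H3K4me2-only regions of REH, and H3K4me2 libraries 86.5 ± 6.06% and 27.7 ± 8.68% (SD, n = 3 each). Every Raji library called a lower share of the H3K4me2-only than of the both-marks regions. Over all regions the Raji means were 53.6% for H3K4me3 and 57.7% for H3K4me2 libraries. Of the 50 H3K4me3-only regions, 86 ± 2% were called for H3K4me3 and 34.7 ± 26.4% for H3K4me2 in Raji.

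Whether the balance of the marks differed between REH and Raji was tested by the interaction of mark and line in limma. NALM6, another B-cell precursor leukemia line of the series, was not compared, so no difference is shown to be particular to REH. The test covered 5910 regions called in all 12 libraries. The interaction passed in 1741 (29.5%), of which 1079 leaned more to H3K4me3 in REH and 662 less. Across these regions the log2 differences of the lines had r = 0.78 and the same sign in 80.3% (a description over regions of 2 lines). Reads ranged from 6.70 to 13.9 M in Raji H3K4me2 and from 20.1 to 47.9 M in Raji H3K4me3 libraries, a wider gap between marks than in REH, and its part in the interaction was not tested.

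SOX4 and MYB were among the listed genes with the largest interaction. SOX4 had a log2 difference of 1.81 in REH and -0.12 in Raji (interaction adjusted p = 8.09e-06, limma), MYB 1.11 and -0.45 (1.01e-06) and FOXO1 1.73 and 0.94 (0.000265). In the comparison within REH, MYB turned to -0.449 by maximum signal. A RUNX1 region was at -0.18 and -1.47, PAX5 at 0.21 and -0.62 and KMT2B, an H3K4 methyltransferase gene, at 0.08 and -1.18, all higher in REH. Another RUNX1 region was nearly level at -1.14 and -1.16 (interaction adjusted p = 0.965, limma). In the other direction POU2AF1 was at -2.23 in REH and -1.24 in Raji, CD22 at -2.02 and -1.21 and FAS at -0.999 and -0.00214. Of 32 ribosomal protein genes tested, 2 leaned more to H3K4me3 in REH and 9 less, and of 17 writers and erasers 5 leaned more and 0 less. Over all 5910 regions tested, 1079 leaned more and 662 less.

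Bryostatin moved the balance in few regions of REH. The interaction of mark and treatment passed in 28 of 6572 regions (0.426%), 9 with a higher and 19 with a lower H3K4me3 balance in untreated cells, and 510 had an unadjusted p below 0.05. The comparison uses the same untreated libraries as the rest of the text. Genes outside the lists are named here after their values were seen. HMGA2, a chromatin protein gene, had a log2 difference of -1.56 untreated and -0.46 treated, AHNAK -3.30 and -2.01, FOS, an immediate early AP-1 gene, -2.29 and -1.47, and CDKN1A, the p21 cell-cycle inhibitor, -0.05 and 0.49.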

How the data were processed

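Cut&Tag was done in untreated REH cells with antibodies to H3K4me2 and H3K4me3 (3 libraries each). The authors used TrimGalore for adapters and Bowtie2 for alignment to hg38, made RPKM coverage in bins of 10 bp and called peaks per library with SEACR (stringent), with versions not given in the sources used here. The deposited signal is the summed and the maximum RPKM coverage of each peak, and reads under peaks were not used here. Depth was recovered from the step of the coverage values, and intervals are not given.

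Peaks on the main chromosomes were merged at 1 shared base and annotated with the starts of GENCODE release 44. Log2 summed signal was centered on each library's median and tested with limma 3.58.1 in R 4.3.3 (eBayes with trend, Benjamini-Hochberg at 0.05), after a check on simulated data. Values per library were compared by exact permutation tests in scipy 1.17.1. Alternatives were other signal measures and scalings, equal peak numbers (the 7509 strongest), the upper 0.5 of peaks or regions, other overlaps and distances, a replicate block and leaving out each library. Sequences came from hg38 and RefSeq.

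Named genes were those of fixed lists, the 10 regions at starts and up to 5 far from starts of largest difference in each direction, and the 6 strongest or widest regions of each further kind. Members and lists were chosen with earlier results of these data known. A few listed genes are not reported here.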

Additional observations from a re-analysis of the deposited data

Results flagged for a closer look

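The balance of H3K4me3 to H3K4me2 differed between untreated REH and untreated Raji in 1741 of 5910 regions by a limma interaction test (Benjamini-Hochberg adjusted p below 0.05), and 2397 regions had an unadjusted p below 0.05. SOX4 and MYB, progenitor factor genes, leaned to H3K4me3 in REH and not in Raji, while CD22 and FAS leaned more to H3K4me2 in REH. In the comparison within REH, MYB turned to -0.449 by maximum signal. Depth differed more between the marks in Raji than in REH, and its part in this count was not tested.

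The same balance differed between untreated and bryostatin-treated REH in 28 of 6572 regions by the limma interaction test, and 19 of these had a higher H3K4me3 balance after treatment.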

How the results depend on the processing

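Of the values that answer a comparison, 135 alternatives kept their direction (counts within 1.5 times), 26 moved and 1 reversed. Exact tests of 3 libraries against 3 cannot pass 0.05, so only direction was compared there. With equal peak numbers the difference per library was -933 bp in median width, -8.89 Mb in called length and 9.39 percentage points in peaks near a start, and with a library left out the width difference was -585 to -200 bp. For the signal ratio by distance, a whole same-numbered pair was left out, an alternative chosen after seeing the data, and single libraries were not. The share of genes with a peak at a start turned to 6.79 percentage points higher for H3K4me3 with equal peak numbers. Regions with H3K4me2 only were 6373 and with H3K4me3 only 270 when 1 of 3 libraries sufficed, and H3K4me3-only regions were 5 when 3 of 3 were needed. With equal peak numbers the classes held 5145 (both), 2160 (H3K4me2 only) and 1898 (H3K4me3 only), and with the upper 0.5 of peaks 3711 and 457 for both and H3K4me3 only. Leaving out each library gave 7304 to 8616 both-marks, 2683 to 5492 H3K4me2-only and 5 to 358 H3K4me3-only regions. The CpG difference between the first 2 classes was 0.344 over whole regions and 0.509 in 300 bases.

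Calls between the marks numbered 2963 in the upper 0.5 of regions and 3648 with equal peak numbers, and 5216 to 6152 with a library left out. Regions higher in H3K4me3 were 5460 without centering, 1505 in the upper 0.5 and 1648 with equal peak numbers, and those higher in H3K4me2 717 without centering and 1458 in the upper 0.5. Equal peak numbers (1648 against 2000) and regions called in at least 2 of 3 libraries of each mark (3086 against 3512) turned the split to H3K4me2. The Raji interaction had 950 calls by maximum and 809 by mean signal. The bryostatin interaction had 13 by maximum signal, 8 by mean signal and 14 with no trend. The cause of these shifts was not tested, apart from the fewer regions tested in the upper 0.5 and with equal peak numbers.

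Replicate numbers were shared by the marks. The deviations of same-numbered libraries had correlations of 0.38, 0.08 and 0.30, and those of other pairs ran from -0.32 to 0.11. The main tests used no pairing because the study's methods name none. Same-numbered libraries were set side by side only to describe ratios. Of the 6 libraries, 5 correlated best with their own number. With the replicate block 5724 regions were called, 2098 in the Raji and 51 in the bryostatin interaction, and among the named genes the block changed only the call of PAX5 (limma adjusted p = 0.015).

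Named genes that reversed without centering were CD79B (0.27), ACTB (0.46), HOXA9 (0.43), RPL3 (0.72), KMT2A (0.72), VPREB3 (0.12), IGLL1 (0.21), MEN1 (0.20) and SETD1B (0.45). With quantile normalization ACTB (0.29), KMT2A (0.37), IGLL1 (0.22) and SETD1B (0.27) reversed, by maximum signal CD79B (0.56) and MYB (-0.45), and by mean signal GUSBP17 (-0.46) and EBF1 (-0.14). MICA lost its call without centering (-0.10) and by maximum signal (-0.01), FAS without centering (-0.08) and HLA-C by maximum signal (0.05). GUSBP17, COX6B1P1, ACTB, EBF1 and SETD1B also lost their call with at least 1 library left out. Peaks below the caller's threshold are not in the lists, so weak H3K4me3 at regions with H3K4me2 only cannot be measured here.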

Other observations

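Genes near the 28 regions whose balance moved with bryostatin included further signaling genes, named after their values were seen. ZFP36L1, an RNA decay factor gene of early B cells, had a centered log2 difference of H3K4me3 minus H3K4me2 of -1.004 in untreated and 0.05 in treated REH (limma interaction adjusted p = 0.000338). KCNJ2, a potassium channel gene, had -1.31 and 0.02, SPRED2, an inhibitor of RAS signaling, -0.79 and -0.01, and BMP2 -1.11 and -0.42. SEMA6A and SH3TC1 moved the other way, from -1.91 to -2.67 and from -1.22 to -1.91. ZFP36L1 H3K4me3 values of the treated libraries lay above all 3 untreated ones, and its H3K4me2 values lay below them.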
